A study of Homo sapiens with 4 samples.

Results

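The leukocyte integrin genes examined here are the 4 β2-partner α subunit genes on chromosome 16 (ITGAM, ITGAX, ITGAD and ITGAL), the β2 gene ITGB2, and the other leukocyte integrin genes ITGA4, ITGA5, ITGB1 and ITGB7. These 9 genes were taken by name, by a rule that uses no measured value but was written with earlier results of these data known, out of 20037 genes annotated as protein-coding on GRCh38.p14, the build of hg38. H3K27Ac, an acetyl mark on histone H3 that is characteristic of active enhancers and promoters, was mapped by ChIPmentation, in which the Tn5 transposase cuts and tags chromatin DNA for sequencing, in MOLM13 cells. MOLM13 is a single human AML cell line with MLL1-r, so it stands for 1 leukemia and its culture. One library was made from control cells, whose label gives no treatment while the protocol names a DMSO arm, and 1 library from cells treated for 16 h with 500 nM of the Menin inhibitor SNDX-50469. The question of the comparison is how Menin inhibition changed the active enhancers and promoters of these cells. Since each condition has a lone library, nothing here could be set against a spread between replicates and no test between conditions was made. The series also has 2 input libraries, not analysed here. In bulk chromatin, fewer cells with the mark and less mark per cell cannot be told apart. With 1 library per condition, a weaker SNDX-50469 library cannot be told apart from either. An absent SNDX-50469 peak, or nothing kept, is therefore a statement about the lists and not a measured loss of the mark.

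Integrins are adhesion receptors made of 1 α and 1 β subunit. The β2 chain, CD18, pairs with αL to form LFA-1, with αM to form Mac-1 (complement receptor 3), with αX to form complement receptor 4, and with αD. These receptors carry leukocyte arrest on endothelium through ICAM proteins, phagocytosis of complement-coated particles and contact between immune cells, and αM (CD11b) is a common marker of myeloid differentiation. The α4 chain pairs with β1 (VLA-4, a receptor for VCAM1 and fibronectin) or with β7 (a receptor for MADCAM1 on gut endothelium), and α5 pairs with β1 as the classical fibronectin receptor.

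The promoter sequences of 5 of the 9 genes were found in the RefSeq table of GRCh38.p14, each running from 250 bases before the annotated start to 50 after it. Those of 4 genes are shown, because ITGAM and ITGB7 had a control peak and no SNDX-50469 peak over this stretch, and ITGA4 and ITGA5 had peaks of both lists over all 300 bases. Capitals mark matches to 6 motifs searched on both strands. For PU.1 and other ETS factors the core searched was GAGGAA, and for RUNX factors the letters were TGTGGT. For C/EBP factors they were TTGCNNAA, and for MEIS factors they were TGACAG. The letters of the GC box were GGGCGG, and those of the TATA box were TATAAA.
ITGAM, chr16:31259725-31260024, plus strand: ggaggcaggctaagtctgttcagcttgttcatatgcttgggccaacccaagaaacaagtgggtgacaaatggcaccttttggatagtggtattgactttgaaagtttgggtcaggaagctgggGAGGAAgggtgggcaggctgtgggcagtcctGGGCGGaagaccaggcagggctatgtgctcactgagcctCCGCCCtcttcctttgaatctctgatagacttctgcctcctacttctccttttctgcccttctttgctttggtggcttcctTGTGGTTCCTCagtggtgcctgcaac
ITGB7, chr12:53207202-53207501, minus strand: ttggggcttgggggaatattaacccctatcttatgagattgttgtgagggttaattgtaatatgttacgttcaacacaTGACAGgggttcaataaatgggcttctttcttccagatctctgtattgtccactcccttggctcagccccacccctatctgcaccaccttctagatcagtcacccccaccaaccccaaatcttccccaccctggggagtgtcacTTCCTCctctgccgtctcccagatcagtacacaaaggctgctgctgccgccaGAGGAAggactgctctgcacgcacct
ITGA4, chr2:181457136-181457435, plus strand: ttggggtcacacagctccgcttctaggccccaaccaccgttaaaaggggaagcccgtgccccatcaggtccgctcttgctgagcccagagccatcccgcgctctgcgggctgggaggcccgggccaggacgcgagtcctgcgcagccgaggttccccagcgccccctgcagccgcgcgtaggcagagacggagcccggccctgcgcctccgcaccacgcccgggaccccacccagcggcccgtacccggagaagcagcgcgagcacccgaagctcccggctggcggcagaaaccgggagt
ITGA5, chr12:54419217-54419516, minus strand: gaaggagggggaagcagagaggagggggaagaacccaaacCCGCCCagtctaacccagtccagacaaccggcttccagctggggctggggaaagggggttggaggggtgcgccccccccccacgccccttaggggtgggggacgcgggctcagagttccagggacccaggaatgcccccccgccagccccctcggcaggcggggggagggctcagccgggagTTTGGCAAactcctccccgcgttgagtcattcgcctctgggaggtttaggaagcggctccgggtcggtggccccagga

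In the ITGAM promoter, the PU.1 motif matched at position −127 from the start on the strand of the gene and at position 29 on the other strand, where it shares 1 base with the RUNX match. ITGAM also held 2 GC boxes. The ITGB7 promoter held 2 PU.1 matches and 1 MEIS match, that of ITGA5 1 GC box and 1 C/EBP match, and that of ITGA4 none of the 6 motifs. Among the 15843 promoters of protein-coding genes in the table, 27.6% held the PU.1 motif, 10.8% RUNX, 8.36% C/EBP, 14.7% MEIS, 58.5% a GC box and 9.63% a TATA box. These matches are descriptions of the letters, and binding was not measured. The promoters also differed in base composition. Those of ITGAM and ITGB7 held 2 and 4 CpG dinucleotides with a GC content of 53.3% and 51.7%, and those of ITGA4, ITGA5 and ITGB1 held 31, 16 and 39 with 72.3%, 69.3% and 78.3%. The median over all promoters was 22 CpG and 62.7%.

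The control list held 245875 peaks covering 224 Mb, and the SNDX-50469 list 54061 peaks covering 29.4 Mb. Each peak carries the authors' fold over the background of its own library, with its −log10 p and −log10 q, and these values are not scaled between libraries, so that positions were compared between lists and strengths only described within a list. Read totals are unknown from the lists. The background recovered from the weakest peak was 0.877 fragments per position in control and 0.735 after treatment, and the lists ended at a −log10 p of 2.68 and 3.93, so that the weakest peaks of the control list lay below the level at which the SNDX-50469 list ends. Of the SNDX-50469 peaks, 41.9% lay on chromosome 8, against 10.5% of the control peaks, and none of the 9 integrin genes lies there. As a check of the labelled cell type, all 9 myeloid genes looked at (MEIS1, FLT3, CSF1R, SPI1, CD33, MPO, CEBPA, HOXA9 and LYZ) were covered in control, with a median of 20288 bp (flanks of 5 kb included). Among genes that mark other cells, HBB, EPCAM and ALB had no control peak. CD8A was covered over 268 bp, and CD3E, CD79A and COL1A1 over 9490 to 13986 bp, so peaks alone do not separate cell types at these genes. Of the covered length of the myeloid genes 18.4% was kept, from 3.19% at MEIS1 to 86.9% at HOXA9. CD79A kept 47.1%, and CD8A, CD3E and COL1A1 kept nothing.

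For each gene, the covered length is the number of bases under peaks within the gene body and its flanks of 5 kb. The part of it in control that also lay under SNDX-50469 peaks, in percent, is the kept share. A whole peak was called shared when at least 1 bp of it lay under a peak of the other list. The covered length was shorter after treatment at all 9 integrin genes, which added up to 197615 bp in the control library and 14980 bp in the treated one. This direction alone sets no gene apart, since 98.1% of the 15634 genes that had any control peak went the same way. Of the control covered length of the 9 genes 7.57% was kept, and their median kept share was 4.96%, against 9.71% of all positions covered in control and a median of 2.37% over the 15634 genes. Neither is a like background. Both take in chromosome 8, and the 2.37% also many genes with little control coverage. Genes of like coverage are compared below, but those of chromosome 8 are still among them. With the control list trimmed to its strongest peaks, down to the covered length of the SNDX-50469 list, 18.8% was kept, the median was 24.4%, and 4 genes had a shorter covered length, the other 5 having no control peak left. The genes spread widely, from ITGAM, ITGAD and ITGB7 with nothing kept to ITGA4 with 23.1%.

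**Figure D1:**
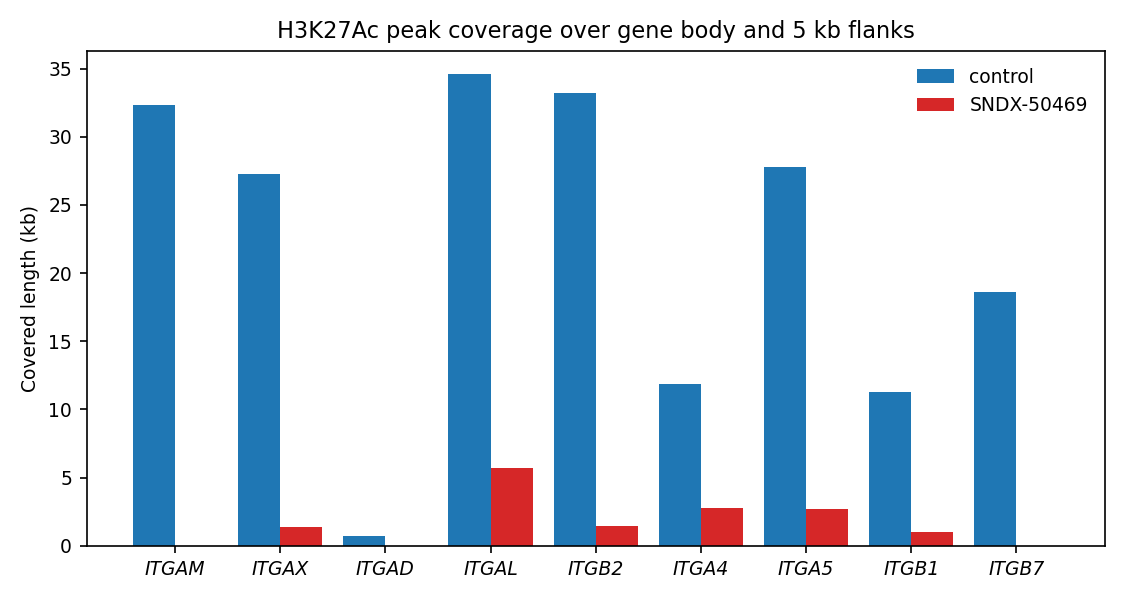
Length covered by H3K27Ac peaks (kb) of each gene with flanks of 5 kb, in the control library (blue bars) and the SNDX-50469 library (red bars), 1 library each. ITGAL had the longest covered length in both lists, and no red bar is present at ITGAM, ITGAD and ITGB7.

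ITGAM, ITGAX and ITGAD lie next to each other in the same direction on chromosome 16. With 5 kb on both sides this cluster runs from 31254975 to 31431505. There, 63651 bp (36.1% of the region) lay under 47 control peaks and 1352 bp under 2 SNDX-50469 peaks, and 2.12% was kept. ITGAM, which encodes αM (CD11b), lies from 31259975 to 31332877 on the plus strand. Over the gene and its flanks, 27 control peaks covered 32322 bp and no SNDX-50469 peak was present. The nearest SNDX-50469 peak, 31351993 to 31353117, lay 19115 bp beyond its 3′ end, towards ITGAX. The widest control peaks were a pair. The first, 31255075 to 31263686, lay over the 5′ end with a fold of 4.16 and a −log10 p of 5.35. The second, 31296403 to 31302591, lay within the gene from 36428 bp after the 5′ end with a fold of 4.55 and a −log10 p of 6.23. Both are past the −log10 p of 3.93 at which the SNDX-50469 list ends, each against the background of its own library. Most of the 27 control peaks lay below that level. The paper reports that SNDX-50469 raised ITGAM and ITGAX mRNA in MOLM13 cells, which is a measure of RNA and not of this mark.

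Just outside the flank of ITGAM, at −7310 to −5564 bp from its 5′ end, lay the strongest control peak of the cluster and its 50 kb surroundings. It was 1747 bp wide (31252665 to 31254411), with a fold of 7.88, a −log10 p of 13.8 and rank 1158 of the control list, and no position of it was covered after treatment. It was singled out after the values were seen. It was the last of a run of control peaks upstream of ITGAM, in which peaks of 4493 bp and 4452 bp had folds of 4.63 and 4.57 and were likewise not covered. Within 50 kb on both sides of the cluster, 98679 bp lay under 83 control peaks and 3550 bp under 4 SNDX-50469 peaks, and 3.45% was kept.

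ITGAX, which encodes αX (CD11c), lies from 31355176 to 31382999. Its body was covered more densely than that of ITGAM, over 78.1% against 35.6%. With its flanks it had 27234 bp under 12 control peaks and 1352 bp under 2 SNDX-50469 peaks, and 4.96% was kept. Both lay inside the widest control peak of the gene, 31349566 to 31362133, with a fold of 5.60, which spans the 5′ end. The stronger, 31351993 to 31353117 with a fold of 4.12 in its own list, lay at −3183 to −2059 bp from the 5′ end. The other, 31355881 to 31356107, was 227 bp wide with a fold of 3.52 and began 705 bp after it. The next 3 control peaks into the gene had folds of 5.57, 5.83 and 4.28 and widths of 2094, 3535 and 5023 bp, and none of them was covered after treatment. Within the gene body 1.04% of 21729 bp was kept.

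ITGAD, which encodes αD, was nearly bare already in control. It lies from 31393335 to 31426505, and 3 control peaks of at most 359 bp covered 738 bp in all, the strongest with a fold of 2.91. No SNDX-50469 peak was present. All 3 are weaker by −log10 p than the weakest peak of the SNDX-50469 list, so these lists cannot show whether the mark was lost there. The gap between ITGAX and ITGAD held 519 bp of control coverage over 10335 bp. Of the neighbouring genes, ARMC5 kept 22.2% of 8409 bp and TRIM72 1.69% of 11038 bp. At PYDC1 5970 bp, at TGFB1I1 2127 bp, at ZNF843 494 bp and at COX6A2 85 bp were covered in control and none was kept.

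**Figure D2:**
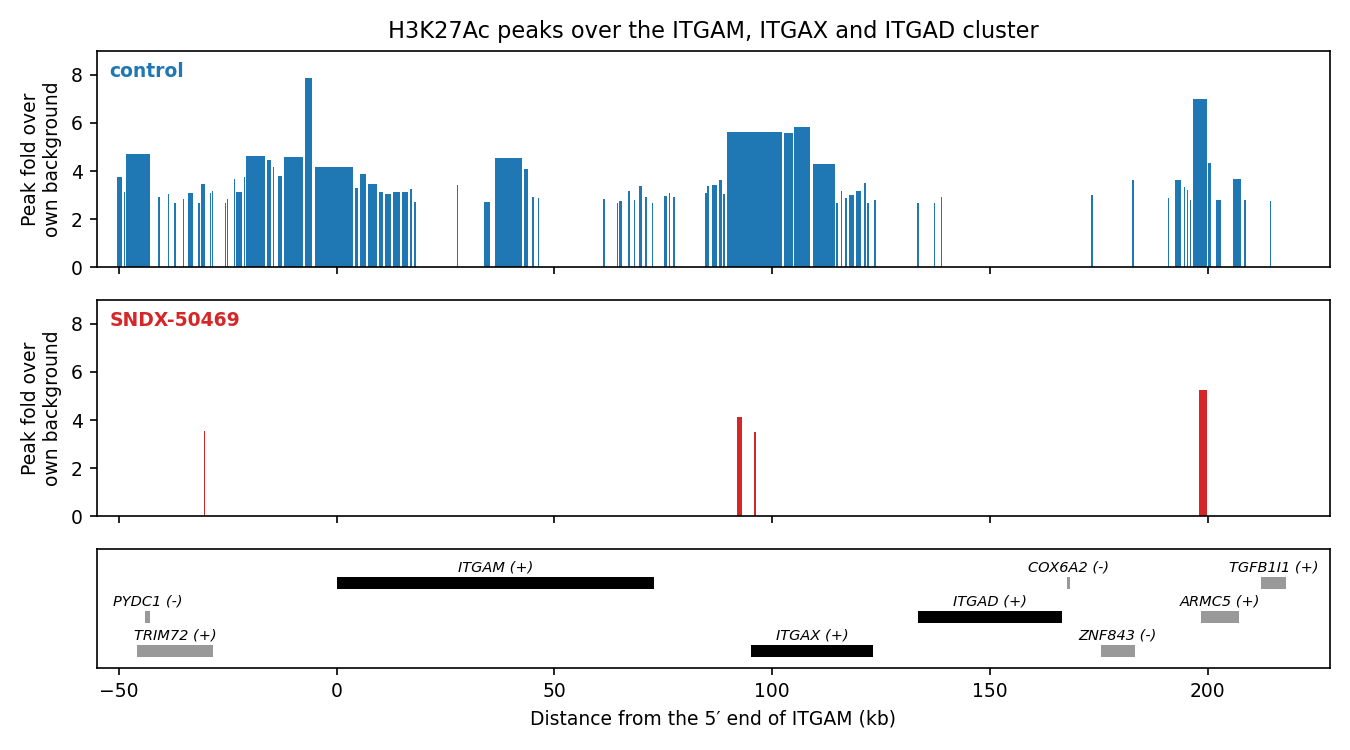
H3K27Ac peaks over the ITGAM to ITGAD cluster and 50 kb on both sides, by distance from the 5′ end of ITGAM (kb). Each bar is a peak of the control list (top, blue) or the SNDX-50469 list (middle, red), with its fold over the background of its own library as height, and the narrowest bars are widened to be visible. The heights are not scaled between the libraries. The bottom row gives the gene bodies with their strands, integrin genes in black. Of the 4 red bars, 2 lie at the 5′ end of ITGAX, 1 at ARMC5 and 1 at TRIM72.

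ITGAL, which encodes αL (CD11a) of LFA-1, lies apart from the cluster, from 30472742 to 30523185 on the plus strand of chromosome 16. In control, 28 peaks covered 34577 bp, the longest covered length of the 9 genes. After treatment 8 peaks covered 5715 bp, and 16.5% was kept. Its leading control peak, 30454959 to 30476570, was 21612 bp wide and began at −17783 bp from the 5′ end. With a fold of 10.4 and a −log10 p of 20.3 it ranked 217 of the 245875 control peaks, the highest rank at any of the 9 genes. Over this peak 10488 bp, 48.5% of its width, was covered after treatment, of which 2913 bp lay within 5 kb of the 5′ end and the rest farther upstream, outside the flank of the gene. The treated peak of highest fold, 30472792 to 30474627 with a fold of 4.70, began 50 bp after the 5′ end. Within 1 kb of the 5′ end 47.5% of 2001 bp was kept, in the gene body 13.4% of 25223 bp, and in the 3′ flank 38.7% of 4354 bp. The peak in the 3′ flank, 30526499 to 30528276, lies over ZNF768.

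ITGB2 encodes β2 (CD18), the partner of all 4 of these α chains, and lies from 44885953 to 44928815 on the minus strand of chromosome 21. In control 19 peaks covered 33178 bp. After treatment 1 peak covered 1476 bp of the window, and the kept share was 4.45%. That peak, 44879965 to 44882428, lay 3524 bp beyond the 3′ end of the gene, inside a control peak of 10840 bp that reaches PTTG1IP. In the gene body itself none of 25045 bp covered in control was kept, and in the 5′ flank none of 4469 bp. The control peak over the 5′ end, 44916852 to 44932720, was 15869 bp wide and covered the first 11963 bp of the gene together with ITGB2-AS1, with a fold of 6.27 and a −log10 p of 10.0. The mark cannot be given to ITGB2 or to its antisense gene from these data. Further into the gene, the control peak 44913139 to 44915910 had a fold of 5.70. Neither shared a position with the SNDX-50469 list.

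Among the other leukocyte integrin genes, ITGA4, which encodes α4, kept the largest share. It lies from 181457205 to 181538940 on the plus strand of chromosome 2, in a window that also holds part of CERKL. In control 17 peaks covered 11890 bp, 13.0% of the gene and its flanks, and after treatment 2 peaks covered 2762 bp, with 23.1% kept. The leading control peak, 181454423 to 181460416 with a fold of 6.56, lay over the 5′ end. The leading SNDX-50469 peak, 181456659 to 181458918 with a fold of 5.00 and rank 1732 of its list, lay inside it and over the same 5′ end. Within 1 kb of the 5′ end 77.3% of 2001 bp was kept, the highest value of the 9 genes.

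ITGA5, which encodes α5, lies from 54395261 to 54419266 on the minus strand of chromosome 12. It had 7 control peaks over 27762 bp, 81.6% of the gene and its flanks, and 3 SNDX-50469 peaks over 2692 bp, with 9.70% kept. The control peak over its 5′ end, 54411152 to 54430992, was 19841 bp wide with a fold of 8.37 and ranked 804. All 3 SNDX-50469 peaks lay within it, 1 of them, 54418688 to 54419778 with a fold of 4.27, over the 5′ end. GPR84-AS1 overlaps the gene. A control peak with a fold of 6.75 beyond the 3′ end, over ZNF385A, was shared outside the window, and none of the 4002 bp it covered in the 3′ flank was kept.

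ITGB1, which encodes the β1 chain found in most cell types, lies from 32900318 to 32958230 on the minus strand of chromosome 10. In control 12 peaks covered 11291 bp, 16.6% of the gene and its flanks. A single SNDX-50469 peak of 983 bp, 32958388 to 32959370 with a fold of 3.80, lay at −1140 to −158 bp from the 5′ end, so that the kept share of 8.71% came from the 5′ flank and none of the 6291 bp in the gene body was kept. ITGB7, which encodes β7, lies from 53191323 to 53207251 on the minus strand of chromosome 12. In control 10 peaks covered 18623 bp, 71.8% of the gene and its flanks, and no SNDX-50469 peak was present. The control peak over its 5′ end, 53205980 to 53213364, had a fold of 5.73 and a −log10 p of 8.70 and also overlaps RARG. The nearest SNDX-50469 peak lay 7176 bp upstream over RARG. Part of ZNF740 also lies in the window.

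To compare genes of like coverage, the 15634 genes, those of chromosome 8 included, were divided into 10 groups of near equal size by control covered length. ITGAM, ITGAX, ITGAL, ITGB2 and ITGA5 are in the highest group, from 25082 to 387755 bp, where the median kept share was 6.70% and 7.74% of genes had nothing kept. In this group ITGAL lay above 81.5% of the genes and ITGA5 above 62.9%, whereas ITGAX lay above 40.2% and ITGB2 above 36.9%. ITGAM was among the 7.74% with nothing kept. Of the 1070 genes with at least as much control coverage as ITGAM, 59 (5.51%) kept nothing. For ITGB7, in the next group with a median of 8.38%, 235 of the 2327 genes with at least as much coverage (10.1%) kept nothing. ITGA4 lay above 77.7% and ITGB1 above 48.3% of the genes of their group, which had a median of 9.17%. By comparison, 44.8% of all 15634 genes kept nothing, against 3 of these 9, and in the group of shortest coverage 98.7% did. ITGAD lies in the next shortest group, where 87.8% kept nothing.

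**Figure D3:**
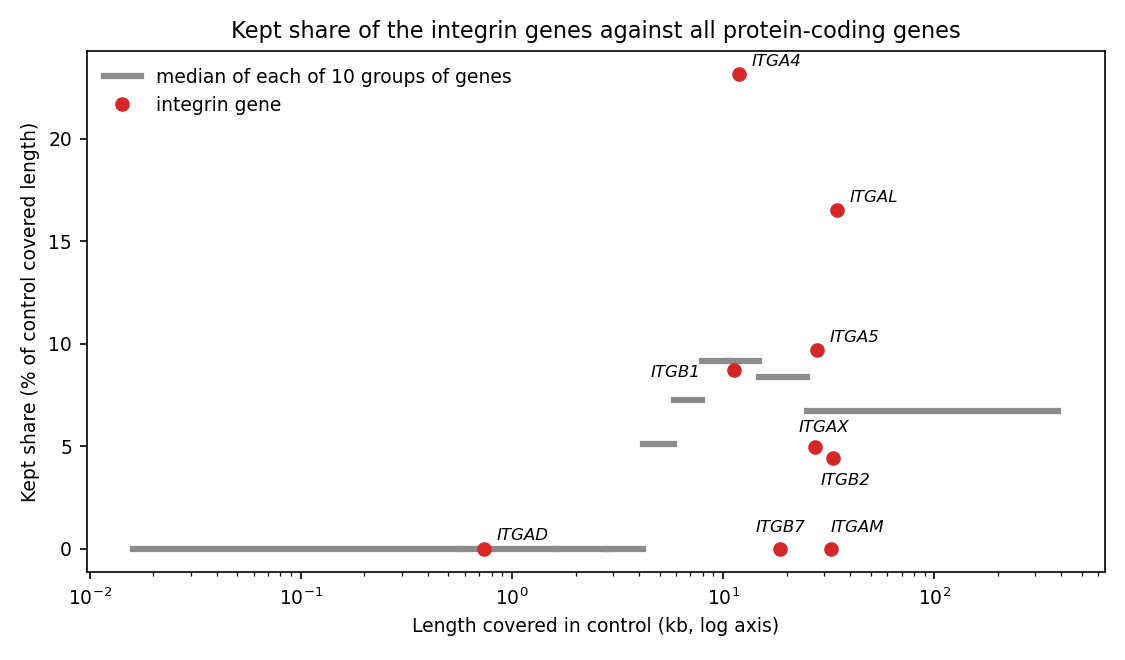
Kept share (percent of the control covered length also covered after treatment) against the length covered in control (kb, log axis) for the 9 integrin genes (red points). Grey lines give the median kept share of each of the 10 groups of genes, over the range of covered length of that group. ITGA4, ITGAL and ITGA5 lie above the line of their group, and ITGAM and ITGB7 at 0.

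All 9 genes had a control peak within 1 kb of the outermost annotated 5′ end, as did 60.4% of the 19101 protein-coding genes with a known strand. An SNDX-50469 peak was present there at 5 genes, ITGAX, ITGAL, ITGA4, ITGA5 and ITGB1. Among all genes with a control peak at the 5′ end, chromosome 8 included, this held for 49.7%, so the count of 5 is near that background. Summed over the 9 genes, 28.6% of 16299 bp within 1 kb of the 5′ ends was kept. In the gene bodies, which include the bases after the 5′ ends, 5.23% of 143769 bp was kept. Neither share was computed over all genes, so the difference does not set these genes apart. The strongest SNDX-50469 peaks of ITGA4 and ITGA5 lay over the 5′ end, and that of ITGB1 next to it. Of the 4 β2-partner α genes only ITGAL had a peak beginning within 100 bp of it. Measured as whole peaks, the control peaks over the 5′ ends of ITGAX, ITGAL, ITGA4, ITGA5 and ITGB1 shared positions with the SNDX-50469 list, and those of ITGAM, ITGAD, ITGB2 and ITGB7 did not. Of all 6505 control peaks lying over protein-coding 5′ ends, chromosome 8 included, 64.3% shared at least 1 bp.

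For the strong peaks this background is much higher. Of the 1542 control peaks over a 5′ end with a −log10 p at least that of the ITGB2 peak, 97.8% shared positions with the SNDX-50469 list, and the ITGB2 peak is 1 of 34 that did not. Of the 2203 at least as strong as the ITGB7 peak 95.6% shared positions, and 96 did not. Of the 4790 at least as strong as the ITGAM peak 81.1% did, and 904 did not. At ITGAD every one of the 6505 peaks is at least as strong. No position within 1 kb of the 5′ end was covered after treatment at ITGAM, ITGB2 or ITGB7.

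**Figure D4:**
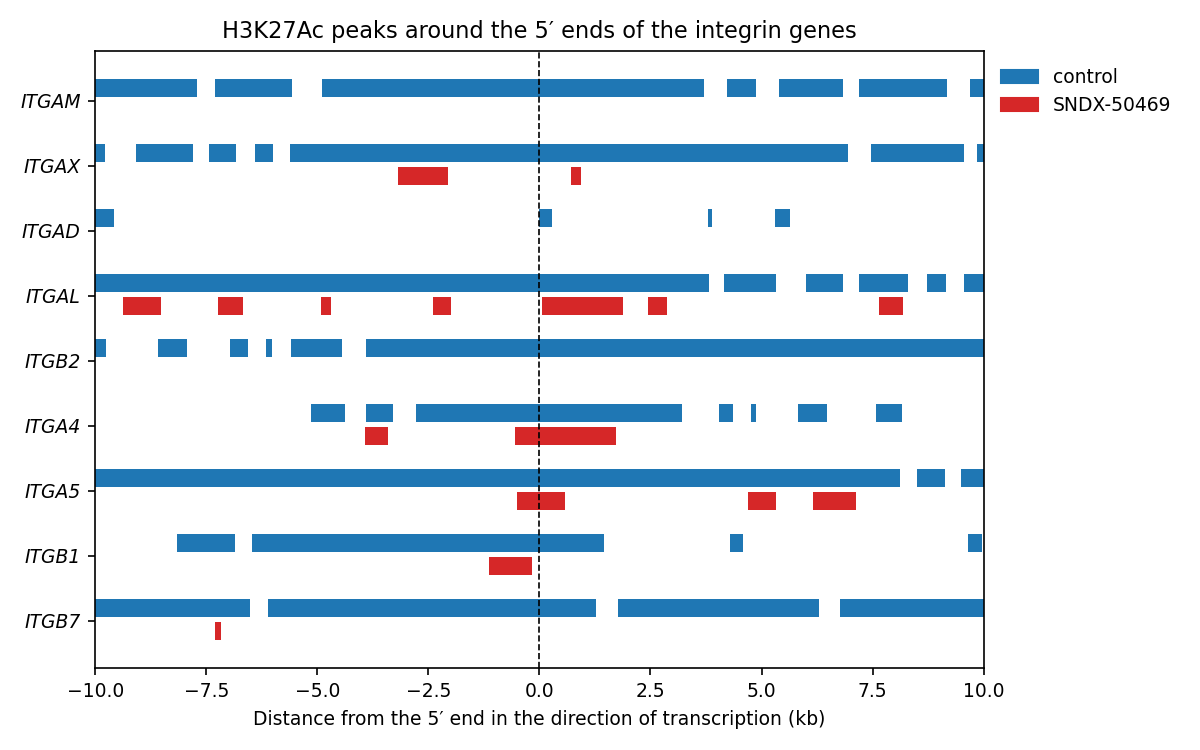
H3K27Ac peaks up to 10 kb from the 5′ ends of the integrin genes, in the direction of transcription (kb; dashed line, the outermost annotated 5′ end), for the control list (blue) and the SNDX-50469 list (red). Blue bars cross all 9 ends. Red bars cross or come within 1 kb of the ends of ITGAX, ITGAL, ITGA4, ITGA5 and ITGB1, and no red bar is within 5 kb at ITGAM, ITGAD, ITGB2 and ITGB7.

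The presence of an SNDX-50469 peak near the 5′ end varied with the CpG content of the promoter over the genome. This split was made once the values were known. Of the 9399 genes with a control peak within 1 kb of the 5′ end and a sequence in the table, the first of 4 groups, with the fewest CpG dinucleotides (0 to 17 in 300 bases), had an SNDX-50469 peak there in 37.5% (Wilson 95% interval 35.6 to 39.5). The groups above it had one in 53.0% (51.0 to 55.0), 55.1% (53.1 to 57.1) and 54.4% (52.4 to 56.4). ITGAM, ITGB7 and ITGA5 are in the lowest group, and ITGA5 kept a peak at its 5′ end. The groups were not matched for the strength or width of the control peak. No promoter sequence was found for ITGAX, ITGAD, ITGAL and ITGB2. The part of base composition in the values of the integrin genes was not tested.

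The 9 windows held 135 control peaks. Of these, 12 shared positions with the SNDX-50469 list, a share of 8.89% (Wilson 95% interval 5.16 to 14.9). Sharing was taken over whole peaks, and that of the ITGA5 peak over ZNF385A lay outside its window. Of all 245875 control peaks 8.24% were shared. The 8.24% takes in chromosome 8, where none of the 9 genes lies, and no share without it was computed. The share of the 9 windows depended on the rule. It was 83.3% with the trimmed control list, which left control peaks at only 4 of the 9 genes, and 0.741% when at least 50% of a control peak had to be covered. Neither value has the share of all control peaks under the same rule beside it, so neither sets these genes apart. The shared peaks had median values of 8347 bp in width and 7.90 in −log10 p, against 526 bp and 3.39 for the others. The ITGB2 peak of 15869 bp over the 5′ end was the widest and strongest that was not shared. Of the 39 control peaks past the −log10 p of 3.93 at which the SNDX-50469 list ends, 9 were shared (23.1%). Genome-wide, chromosome 8 included, 28.4% of the 45451 such peaks were shared. In the other direction, all 17 SNDX-50469 peaks of the windows lay on control coverage, against 57.0% of the 54061 in the whole list. The 57.0% is not a like background. Of the whole list 41.9% lay on chromosome 8, where none of the 9 genes lies, and control peaks covered up to 81.6% of a window here. The 17 SNDX-50469 peaks were not set against genes of like coverage. These peaks were 207 to 2464 bp wide, with a median of 633 bp and folds from 3.46 to 5.00, and no peak absent from control arose at any of the 9 genes.

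**Figure D5:**
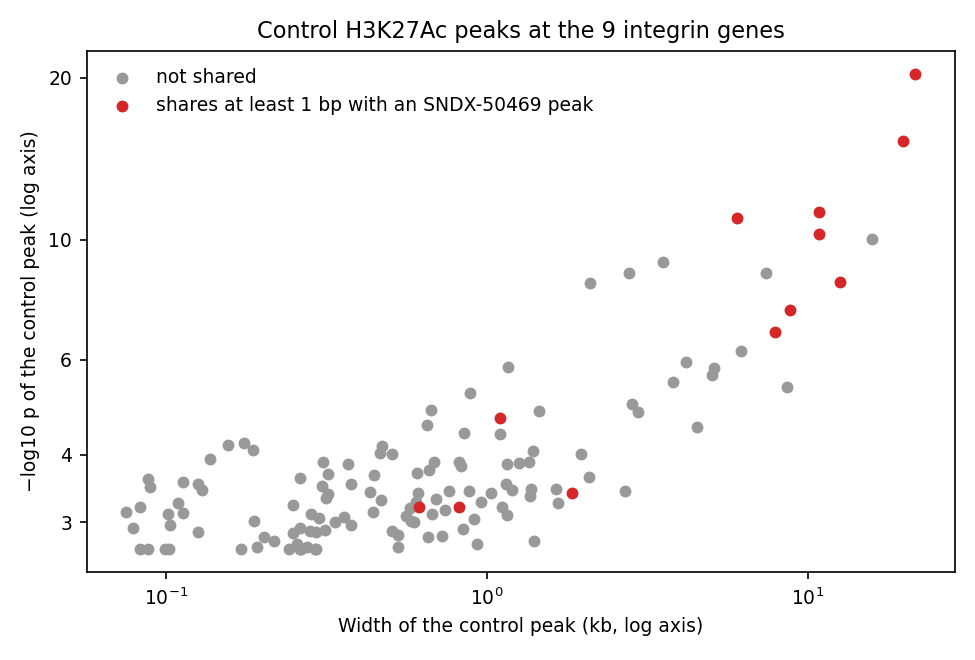
Width (kb, log axis) and −log10 p (log axis) of the 135 control peaks at the 9 integrin genes. Red points share at least 1 bp with an SNDX-50469 peak (12 peaks) and grey points do not. The red points are mostly wide and strong, and the widest grey point is the peak over the 5′ end of ITGB2.

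Most of the remaining integrin subunit genes serve mainly in platelets, epithelium and matrix adhesion. Of 17, 14 had a control peak, all 14 had a shorter covered length after treatment, and 10 had nothing kept, against 98.1% shorter and 44.8% with nothing kept over all genes with a control peak. Summed, 0.748% of 202667 bp was kept. The median control coverage over all 17, those without a control peak included, was 2709 bp. The middle of the 14 covered genes lay between 5215 and 6518 bp. In the groups of all genes that hold these lengths, 40.6% and 31.8% kept nothing. The 10 of 14 lie above these shares, but coverage ran from 309 to 59259 bp, and each gene was not matched to its own group. ITGB5, a subunit of a vitronectin receptor, had the longest coverage, 59259 bp in control and none after treatment. ITGAE, which pairs with ITGB7 as a receptor for E-cadherin, kept 2.49% of 38611 bp, and ITGA7, a laminin receptor subunit, 0.425% of 35298 bp. No control peak was present at ITGA8, ITGB6 and ITGB8.

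Of 16 genes for ligands of leukocyte integrins, 10 had a control peak. All 10 were covered over a shorter length after treatment, and 3 of these kept nothing. Over all genes with a control peak, 98.1% were shorter and 44.8% kept nothing, so neither count sets the ligand genes apart. Summed by gene, 7.48% of 121287 bp was kept. The windows of ICAM1, ICAM4 and ICAM5 overlap, and with each position counted once it was 6.93% of 103890 bp. The complement gene C3, whose product is bound by αM and αX in its cleaved form, kept 1.89% of 31674 bp. ICAM1, a ligand of LFA-1 and Mac-1, kept 1229 of 15357 bp, and F11R, a junctional adhesion molecule, 446 of 13949 bp. FN1 had no control peak and 1 SNDX-50469 peak of 126 bp. Of 20 genes of integrin activation and signalling, all had a control peak and a shorter covered length after treatment. Of these 20, 4 kept nothing, against the same 98.1% and 44.8% of all genes. Their median control coverage was 26885 bp, and in the group of all genes that holds this length only 7.74% kept nothing. The 4 had from 1752 to 26796 bp in control. Summed, 12.2% of 688222 bp was kept. The longest coverage was at PTK2B and LYN, kinase genes on chromosome 8, with 14.5% of 135455 bp and 28.8% of 120414 bp kept. Next came VCL, which links integrins to actin, with 0.928% of 45911 bp. Without the 2 genes of chromosome 8, the kept share of this list was 6.87%, close to the 7.57% of the leukocyte integrin genes. The median kept share of the ligand genes was 4.99% and that of the activation genes 5.13%, beside 4.96% of the 9 integrin genes and 2.37% of all genes with a control peak. The 2.37% takes in the groups of shortest coverage, where the median was 0%, and is not a like background for these lists. In the groups of longest coverage the medians were 6.70%, 8.38% and 9.17%.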

How the data were processed

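H3K27Ac ChIPmentation of MOLM13 cells was analysed in 1 control and 1 SNDX-50469 library. Per the labels, the submitters' processing notes name Trim Galore 0.6.5, Bowtie2 2.3.4.2, Picard 2.9.0, MACS2 2.1.2 and GRCh38, and the supplementary methods name TopHat2, hg38 and diffReps. How the tools were set, and whether inputs entered peak calling, is not given in the sources used here. The values the authors deposited are broad peaks called separately for each library. Every peak comes with a deposited ratio (fold over its library's background), the −log10 of its p-value and q-value, and a score of 10 times the −log10 q without decimals, which was not used.

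Covered, shared and counted lengths were computed with Python 3.11.15, numpy 2.4.6 and pandas 2.3.3, and the code was tested on simulated data. Genes were the 20037 protein-coding genes of GRCh38.p14. Strands were matched by symbol to GENCODE models of the previous build (coordinates not used), and exons were not placed. A peak was shared with at least 1 bp in common. The background level was solved from the fold and −log10 p of the weakest peak (scipy 1.17.1), taking fold as pileup plus 1 over background plus 1. Wilson 95% intervals (statsmodels 0.14.6) cover counting error only, and adjacent peaks may depend on each other. Depth is known only through that background.

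All 9 members were named whatever their values, with every gene near the cluster and the 3 genes of longest control coverage of each list of integrin-related genes. Marker genes came from a separate list. Members and lists were chosen with earlier results of these data known. The alternatives were a stricter −log10 q of 3, a common −log10 p, a control list trimmed to the SNDX-50469 covered length, other flanks (gene body alone, 50 kb), an overlap of at least 50%, and 5 kb around the 5′ end. Some genes of the list of other cell types are not reported here.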

Additional observations from a re-analysis of the deposited data

How the results depend on the processing

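Trimming the control list to the covered length of the SNDX-50469 list moved 4 values. The summed kept share of the 9 genes was then 18.8%, the median 24.4%, and the share of peaks kept 83.3%, and the covered length was shorter after treatment at 4 genes. No control coverage was then left at ITGAM, ITGAX, ITGAD, ITGB1, ITGB7 or over the ITGAM to ITGAD region, so these gave no value; the fewer control peaks alone bring this about. With control peaks past the −log10 p at which the SNDX-50469 peaks end, the share of peaks kept was 23.1%, and with an overlap of at least 50% of the control peak it was 0.741%. With a −log10 q of at least 3 in both lists, the kept share of the ITGAM to ITGAD region was 0%, and 2 genes (ITGAL and ITGA4) had an SNDX-50469 peak within 1 kb of the 5′ end. At that level ITGAX, ITGA5 and ITGB1 kept nothing, and with the gene body alone ITGB2 and ITGB1 kept nothing. ITGAD also gave no value with either stricter level. Of the other values, 19 on the gene group and 33 on single genes stayed within their intervals or within 1.5 times their count. A kept share was judged by the Wilson interval over the number of control peaks, and the median by the second lowest and second highest gene (0% and 16.5%). These bounds are wide, and neither peaks nor genes are replicates, so a value within them did not necessarily hold. The median was 0% with the stricter −log10 q and with the gene body alone. With the trimmed list ITGAL went from 16.5% to 33.0% and ITGA4 from 23.1% to 37.7%, and all of these counted as within. No paired analysis was possible because there is no second library in either group.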

Other observations

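The peak over the 5′ end of ITGB2 was looked at, after its values were seen, among the 34 control peaks over protein-coding 5′ ends that were at least as strong and shared no position with the SNDX-50469 list. With 15869 bp it was the widest of the 34 and the weakest by −log10 p, since its own value set the limit. The strongest by −log10 p were at TMEM143 (818 bp, 23.8) and SOCS2, a feedback inhibitor of cytokine signalling (5287 bp, 20.1). Next in width to ITGB2 was the peak at DYSF, which encodes the membrane repair protein dysferlin (15453 bp, fold 6.68). Others were at RELB, an NF-κB subunit gene (984 bp, fold 7.12), and HDAC7, which encodes a histone deacetylase (6637 bp, fold 6.92).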
